A study of Homo sapiens with 4 samples.

Results

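The genes described are 10 that mark or drive mesenchymal transition: VIM, FN1, CDH1, CDH2, SNAI1, SNAI2, TWIST1, TWIST2, ZEB1 and ZEB2. They were found by matching the Ensembl gene IDs of the count files to GENCODE 29 symbols, and all 10 were present among the 58226 IDs. RNA-seq was performed on 4 libraries, with 1 library per condition. U87MG is a GBM cell line, and R-U87MG is its TMZ-resistant derivative, kept in 50 μM of the alkylating drug TMZ. In R-U87MG, siRNA against HDAC6 (si-HDAC6) was set against non-targeting siRNA (si-NC). In the parental line the same kind of control was set against siRNA to *LINC00461* (si-*LINC00461*). RNA was collected 72 h after transfection. HDAC6 is a cytoplasmic deacetylase, and *LINC00461* is a long non-coding RNA. Each siRNA experiment is a transient knockdown in its own line, R-U87MG for si-HDAC6 and U87MG for si-*LINC00461*. No condition has a replicate, so no p-value is given and every interval covers counting error only.

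In an epithelial-to-mesenchymal transition, cells give up the adhesion molecule E-cadherin, gain N-cadherin, the intermediate filament protein vimentin and the matrix protein fibronectin, and become motile. The SNAI, TWIST and ZEB transcription factors drive this change, and the SNAI and ZEB proteins repress E-cadherin by binding E-box sequences in its promoter. Glioma cells are not epithelial, and in GBM the mesenchymal state is instead a transcriptional subtype linked to invasion and resistance to therapy. ZEB1 and ZEB2 are held in check by the miR-200 microRNAs.

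The libraries held between 12596072 and 20027866 counts. HDAC6 had 296 counts in R-U87MG si-NC, 67 in R-U87MG si-HDAC6, 649 in U87MG si-NC and 540 in U87MG si-*LINC00461*, and its log2 ratio after si-HDAC6 was −1.74 (95% interval −2.16 to −1.36). *LINC00461* had 154, 80, 363 and 73 counts in the same order, and its log2 ratio after si-*LINC00461* was −2.12 (−2.51 to −1.76). Each targeted gene was therefore lower in the library labelled with its siRNA. Of 7 glial and glioma markers, 4 were at or near 0, with 0 to 13 counts of GFAP, 0 to 4 of SOX2 and 0 to 5 of S100B and PTPRZ1. The other 3 were detected. NES, a progenitor filament, had 441 to 854 counts, and the oligodendrocyte lineage factor OLIG2 had 92 in R-U87MG si-NC, 115 in R-U87MG si-HDAC6, 15 in U87MG si-NC and 18 in U87MG si-*LINC00461*. Its log2 ratio was 0.71 after si-HDAC6 and 2.58 (1.82 to 3.51) between the control libraries. The receptor EGFR had 4577 to 11989 counts, and its log2 ratio after si-*LINC00461* was −1.10 (−1.15 to −1.06). The immune markers PTPRC, CD14, AIF1 and CD3E summed to 4 to 8 counts in a library.

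All 10 genes had counts in all 4 libraries, and they spanned a wide range. Between genes, levels were compared as TPM, which divides counts by the length of the merged exons. In the U87MG si-NC library the order was VIM (5190 TPM), FN1 (1130), SNAI2 (220), CDH2 (91.4), ZEB2 (58.0), TWIST1 (57.8), ZEB1 (22.4), TWIST2 (7.53), SNAI1 (5.63) and CDH1 (0.649). By merged exons ZEB2 and TWIST1 did not differ there beyond counting error, nor did TWIST2 and SNAI1. These ties depend on the length used. By the longest transcript ZEB2 had 114 TPM and TWIST1 52.9, and TWIST2 had 7.55 and SNAI1 4.22. VIM, FN1, SNAI2 and CDH2 led in this order in all 4 libraries and CDH1 was last in each, the epithelial member of the set. In R-U87MG si-NC, ZEB1 (62.4 TPM) came ahead of TWIST1 (26.8) and ZEB2 (24.2), the last of which overlapped in their intervals. With the length of the longest transcript in place of merged exons, ZEB2 passed TWIST1 in both R-U87MG libraries, CDH2 in both U87MG libraries and SNAI2 in U87MG si-*LINC00461*, and the other places were the same.

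**Figure D1:**
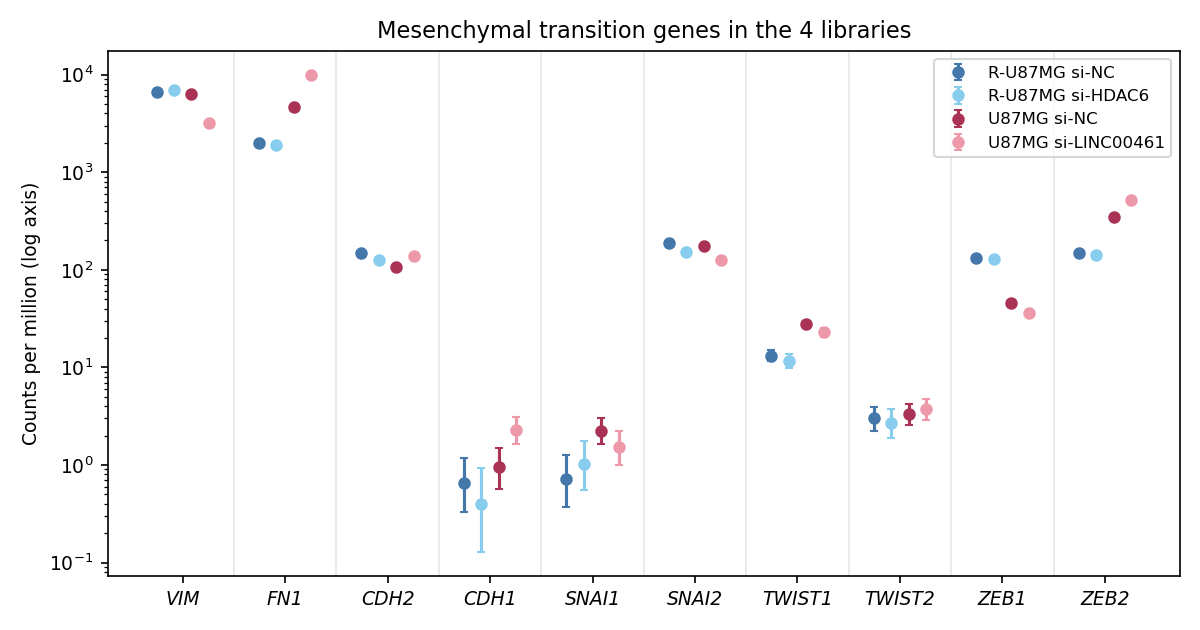
CPM (counts scaled to library size, log axis) of the 10 genes in the 4 libraries, each point 1 library and each bar its exact 95% counting interval. CDH1 and SNAI1 lie near or below 2 CPM, VIM and FN1 at 1900 or more, and FN1 and ZEB2 are highest after si-*LINC00461* and lowest in the R-U87MG libraries.

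Changes were described as log2 ratios after TMM normalization, over genes whose CPM averaged 1 or more, and a gene was called when its ratio was at least 2-fold. In bulk RNA, fewer cells expressing a gene and less RNA of it per cell cannot be told apart. There are 3 comparisons, and that of the control libraries shares a library with each of the others.

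VIM encodes vimentin, the intermediate filament protein of mesenchymal cells (ENSG00000026025, chromosome 10 from 17228259 to 17237593, plus strand of GRCh38). It had 6560 CPM (counts scaled to library size) in R-U87MG si-NC, 6940 in R-U87MG si-HDAC6, 6330 in U87MG si-NC and 3170 in U87MG si-*LINC00461*. The si-*LINC00461* library stood alone at the low end, and the other libraries lay close together. The log2 ratio after si-*LINC00461* was −0.98 (−1.0 to −0.97), a 1.98-fold difference that missed the 2-fold call, and with DESeq2 size factors it was −1.01 and passed. After si-HDAC6 the ratio was 0.07 (0.06 to 0.08). Between the control libraries it was −0.21 (R-U87MG over U87MG, −0.22 to −0.20), and it turned to 0.05 when library totals were used without TMM.

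FN1 encodes fibronectin, the matrix glycoprotein that integrins bind (ENSG00000115414, chromosome 2 from 215360440 to 215436172, minus strand). It had 1980 CPM in R-U87MG si-NC, 1900 in R-U87MG si-HDAC6, 4630 in U87MG si-NC and 9980 in U87MG si-*LINC00461*. U87MG was above R-U87MG in the controls and si-*LINC00461* was higher still. The log2 ratio after si-*LINC00461* was 1.12 (1.11 to 1.13), with its interval wholly beyond 2-fold, and between the control libraries it was −1.49 (−1.51 to −1.47). After si-HDAC6 it was −0.07 (−0.10 to −0.05). The FN1 promoter, taken from RefSeq (GRCh38.p14) as 250 bases before and 50 after the start site, holds the palindrome TGACGTCA, the binding sequence of the CREB and ATF factors, 183 bases before the start. This motif was searched after the promoter had been seen, on the strand of the gene, and 540 of 27305 promoters in the table (1.98%) hold it. It is shown in capitals within 30 bases of chr2:215436233-215436262, minus strand, upstream of all annotated FN1 exons.
FN1: acagtcccccgTGACGTCAcccggagcccg

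VIM and FN1 thus moved in opposite directions after si-*LINC00461*. Within a library, where no scaling between libraries enters, the count ratio of FN1 to VIM was 0.302 (0.298 to 0.306) in R-U87MG si-NC, 0.273 (0.269 to 0.277) in R-U87MG si-HDAC6, 0.733 (0.726 to 0.739) in U87MG si-NC and 3.15 (3.12 to 3.18) in U87MG si-*LINC00461*. Per length of merged exons the same ratio was 0.0899, 0.0814, 0.218 and 0.937. Fibronectin transcripts were therefore far fewer than vimentin transcripts in R-U87MG and nearly as many after si-*LINC00461*.

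CDH1 encodes E-cadherin, the epithelial adhesion molecule (ENSG00000039068, chromosome 16 from 68737225 to 68835548, plus strand). It had 11 counts in R-U87MG si-NC, 5 in R-U87MG si-HDAC6, 19 in U87MG si-NC and 41 in U87MG si-*LINC00461*. All of these are low. The log2 ratio after si-*LINC00461* was 1.28 (0.48 to 2.16), which passed 2-fold while its interval did not. The other comparisons fell under the filter on low counts, with ratios of −0.67 (−2.62 to 0.90) after si-HDAC6 and −0.76 (−2.0 to 0.36) between the controls. Even after si-*LINC00461*, CDH1 stood at 1.55 TPM.

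CDH2 encodes N-cadherin, the mesenchymal and neural cadherin (ENSG00000170558, chromosome 18 from 27950966 to 28177446, minus strand). It had 147, 127, 107 and 140 CPM in R-U87MG si-NC, R-U87MG si-HDAC6, U87MG si-NC and U87MG si-*LINC00461*. Its levels were among the most even of the 10 genes, with log2 ratios of −0.21 (−0.31 to −0.12) after si-HDAC6, 0.40 (0.32 to 0.48) after si-*LINC00461* and 0.19 (0.11 to 0.27) between the controls. There were 222 (124 to 445) counts of CDH2 for each count of CDH1 in R-U87MG si-NC and 321 (137 to 989) in R-U87MG si-HDAC6. The ratio was 113 (72 to 188) in U87MG si-NC and 60.6 (44.5 to 84.7) in U87MG si-*LINC00461*. Every library was therefore on the N-cadherin side of the cadherin switch, by counts and per length alike.

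SNAI1 and SNAI2 encode Snail and Slug, zinc-finger repressors of CDH1. SNAI1 (ENSG00000124216, chromosome 20 from 49982999 to 49988886, plus strand) had 12 counts in R-U87MG si-NC, 13 in R-U87MG si-HDAC6, 45 in U87MG si-NC and 27 in U87MG si-*LINC00461*. The R-U87MG libraries were lower than the U87MG ones, and the log2 ratio between the controls was −1.86 (−2.96 to −0.96). SNAI1 had ratios of −0.54 (−1.29 to 0.17) after si-*LINC00461* and 0.50 (−0.74 to 1.77, under the filter) after si-HDAC6, so its direction was not detectable at this depth in either knockdown.

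SNAI2 (ENSG00000019549, chromosome 8 from 48917604 to 48921740, minus strand) was the highest of the transcription factors per length of merged exons in all 4 libraries. It had 190 CPM in R-U87MG si-NC, 153 in R-U87MG si-HDAC6, 176 in U87MG si-NC and 125 in U87MG si-*LINC00461*. Both knockdown libraries were below their own control, with log2 ratios of −0.32 (−0.40 to −0.24) after si-HDAC6 and −0.48 (−0.56 to −0.40) after si-*LINC00461*. The former lay at percentile 7.9 of all genes tested and the latter at 20.8. Between the controls the ratio was −0.15 (−0.22 to −0.08), and 0.11 with library totals. Within a library there were 78.4 (58.5 to 108) to 264 (151 to 512) counts of SNAI2 for each of SNAI1.

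TWIST1 and TWIST2 encode basic helix-loop-helix factors that pair with E proteins. TWIST1 (ENSG00000122691, chromosome 7 from 19020991 to 19117672, minus strand) had 13.2 CPM in R-U87MG si-NC, 11.7 in R-U87MG si-HDAC6, 27.8 in U87MG si-NC and 22.8 in U87MG si-*LINC00461*. It was lower in R-U87MG, with a log2 ratio between the controls of −1.33 (−1.57 to −1.11). TWIST1 ratios were −0.19 (−0.50 to 0.12) after si-HDAC6 and −0.27 (−0.46 to −0.09) after si-*LINC00461*.

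TWIST2 (ENSG00000233608, chromosome 2 from 238848032 to 238910543, plus strand) had 3.0, 2.7, 3.35 and 3.71 CPM in the same order. All 3 of its intervals held 0, with log2 ratios of −0.16 (−0.84 to 0.49) after si-HDAC6, 0.17 (−0.35 to 0.68) after si-*LINC00461* and −0.41 (−0.98 to 0.13) between the controls.

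ZEB1 and ZEB2 encode paired zinc-finger and homeobox repressors of similar structure, and their balance differed between the lines. ZEB1 (ENSG00000148516, chromosome 10 from 31318495 to 31529814, plus strand) had 131 CPM in R-U87MG si-NC, 129 in R-U87MG si-HDAC6, 45.8 in U87MG si-NC and 36.0 in U87MG si-*LINC00461*. It was the sole gene of the 10 called higher in R-U87MG, with a log2 ratio between the controls of 1.25 (1.14 to 1.37). ZEB1 ratios were −0.03 (−0.13 to 0.06) after si-HDAC6 and −0.33 (−0.48 to −0.18) after si-*LINC00461*.

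ZEB2 (ENSG00000169554, chromosome 2 from 144364364 to 144524583, minus strand) had 147, 141, 344 and 515 CPM in the same order. It showed the reverse of ZEB1, lower in R-U87MG with a log2 ratio of −1.49 (−1.56 to −1.42) and higher after si-*LINC00461* with one of 0.60 (0.55 to 0.64). After si-HDAC6 it was −0.07 (−0.16 to 0.02). Counts of ZEB2 per count of ZEB1 were 1.12 (1.06 to 1.19) in R-U87MG si-NC, 1.10 (1.02 to 1.17) in R-U87MG si-HDAC6, 7.51 (7.01 to 8.06) in U87MG si-NC and 14.3 (13.2 to 15.5) in U87MG si-*LINC00461*. Per length of merged exons ZEB1 led in R-U87MG (ratios of 0.388 and 0.378) and ZEB2 in U87MG (2.59 and 4.94). The margins depend on the length used. By the longest transcript ZEB1 and ZEB2 had 64.4 and 47.4 TPM in R-U87MG si-NC, and 23.1 and 114 in U87MG si-NC.

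**Figure D2:**
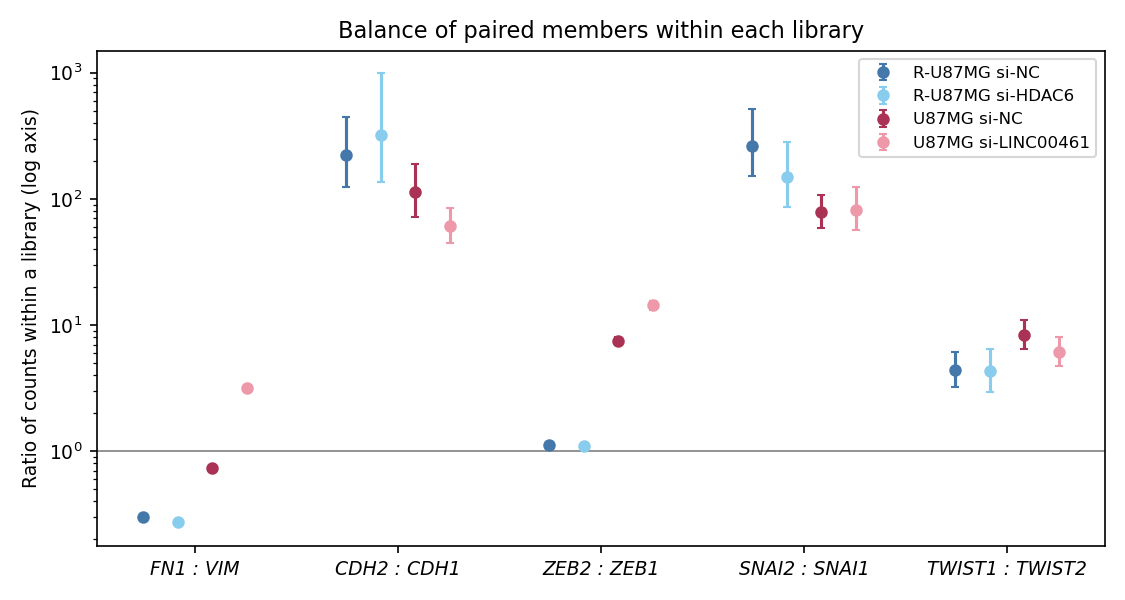
Ratio of the counts of related genes within each library (log axis), with exact 95% counting intervals. FN1:VIM crosses 1 in the U87MG si-*LINC00461* library alone, at 3.15, and ZEB2:ZEB1 is near 1 in both R-U87MG libraries and 7.51 and 14.3 in the U87MG libraries.

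The ZEB genes are the classic targets of the miR-200 family, so their sites are shown with the microRNAs. A microRNA pairs with a 3′ UTR mainly through its seed, bases 2 to 8, here in capitals. The family falls into 2 groups of shared seed, with mature sequences from RefSeq (GRCh38.p14). Mature miR-9 is shown as well, because the miR-9-2 sequence at chr5:88666902-88666924 (minus strand) lies in an exon of 5 of the 16 annotated *LINC00461* transcripts.
hsa-miR-200b-3p: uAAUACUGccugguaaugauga
hsa-miR-200c-3p: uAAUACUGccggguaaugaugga
hsa-miR-429: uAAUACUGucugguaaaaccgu
hsa-miR-200a-3p: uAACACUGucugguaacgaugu
hsa-miR-141-3p: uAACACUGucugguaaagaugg
hsa-miR-9-5p: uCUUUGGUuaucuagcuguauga

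The letters that pair with these seeds are CAGTATT (miR-200b, miR-200c and miR-429), CAGTGTT (miR-200a and miR-141) and ACCAAAG (miR-9), searched on the transcript strand of the GENCODE 29 3′ UTRs. ZEB1 held 6 CAGTATT and 3 CAGTGTT, and ZEB2 held 5 and 4 together with 1 ACCAAAG. FN1 held 2 CAGTATT and SNAI2 held 1. The other 6 genes held none of the 3. Of 19070 genes searched, 16% held at least 1 CAGTATT, 18.4% a CAGTGTT and 12.8% an ACCAAAG, and these shares are not adjusted for length. A match is not evidence of binding. The following 29-base stretches show, with the site in capitals, 1 site of each type in ZEB1 and ZEB2 and both in FN1.
ZEB1, chr10:31527622-31527650, plus strand, exon 9 of 9: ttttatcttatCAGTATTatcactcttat
ZEB1, chr10:31528035-31528063, plus strand, exon 9 of 9: atcatcagaatCAGTGTTtgtgattgtgt
ZEB2, chr2:144389042-144389070, minus strand, exon 8 of 8: ctaccatacatCAGTATTtttattattat
ZEB2, chr2:144389226-144389254, minus strand, exon 8 of 8: aaaattttgtaCAGTGTTaaggcctaaaa
ZEB2, chr2:144385404-144385432, minus strand, exon 8 of 8: ggggaaaaaacACCAAAGaattcacatgg
FN1, chr2:215361293-215361321, minus strand, exon 45 of 45: tcaataccgctCAGTATTttaaatgaagt
FN1, chr2:215361007-215361035, minus strand, exon 45 of 45: tcaatttttccCAGTATTtttatacggaa

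The libraries do not measure mature microRNAs. The annotated genes MIR200A, MIR200B, MIR429, MIR200C and MIR141 and the host transcript MIR200CHG had 0 counts in all 4 libraries, where 3 counts correspond to 0.15 to 0.238 CPM. ZEB1 and ZEB2 carry similar numbers of miR-200 matches, and their levels differed in opposite directions between the lines. Any part of the miR-200 family in these levels was not tested.

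E-boxes were searched in the RefSeq promoters as CAGGTG and its reverse complement CACCTG, the letters that the SNAI and ZEB factors bind. The promoter table matched 6 of the 10 genes. CDH1, SNAI1, SNAI2 and TWIST1 were not in it, so the E-cadherin promoter was not searched. Of the 6 genes ZEB1 was the sole one to hold an E-box, 57 bases before its start site. Of all 27305 promoters, 5625 (20.6%) hold at least 1. The E-box of ZEB1 is described next. It is shown in capitals within chr10:31318348-31318377, plus strand, a stretch that also lies within the span of the antisense gene ZEB1-AS1.
ZEB1: ccgaggtgacagCAGGTGagggccgggtgc
The promoters of VIM, FN1, CDH2, TWIST2 and ZEB2 did not have these letters in the window searched.

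Taking the comparisons as a whole, si-HDAC6 in R-U87MG left 0 of the 8 genes tested at 2-fold or more, where 1.44% of all 13120 genes tested were (0.694% higher and 0.747% lower). The genes ranged from −0.32 for SNAI2 to 0.07 for VIM, and 7 of 8 were below 0. Their median log2 ratio was −0.12, beside −0.01 over all genes. For VIM, CDH2, SNAI2 and FN1 the counting interval excluded 0, by small margins that have no replicate check.

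After si-*LINC00461* in U87MG, 2 of 10 genes (FN1 and CDH1) were called higher and 0 lower, where 5.42% of 13210 genes were called higher and 8.17% lower. There were 5 genes above 0 and 5 below, and their median was −0.05, beside 0.00 over all genes. The genes above 0 were FN1, CDH1, ZEB2, CDH2 and TWIST2, and those below were VIM, SNAI1, SNAI2, TWIST1 and ZEB1. By marker class, fibronectin and E-cadherin were both on the higher side and vimentin and Slug both on the lower. FN1 was the sole gene of the 10 with its whole interval past 2-fold, where 2.88% of all genes had that on the higher side and 4.78% on the lower. In the same library the proliferation genes were far lower, with 9 of 10 called and a summed level of 242 CPM against 1210 in the control. PECAM1, an adhesion molecule of endothelial cells, had 433 counts against 52 in the control (3.23, 2.83 to 3.69). Of the other endothelial genes, CDH5 had 14 against 7, VWF 16 against 8 and CLDN5 0 against 1, all under the filter on low counts. PECAM1 ratios were −0.35 after si-HDAC6 and −0.93 between the controls. The part of these differences in the values above was not tested.

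R-U87MG si-NC over U87MG si-NC gave 1 gene called higher (ZEB1) and 4 lower (FN1, ZEB2, TWIST1 and SNAI1) of 9 tested, where 11.2% of 13349 genes were called higher and 15.0% lower. The median of the 9 genes was −0.41, beside 0.02 over all genes. In either direction 26.2% of all genes were called. VIM, CDH2, SNAI2 and TWIST2 were within 2-fold. ZEB1 passed 2-fold with its whole interval, as did FN1, ZEB2 and TWIST1 on the lower side, where 6.34% of all genes did so upward and 10.8% downward. R-U87MG was kept in TMZ, so the line and the drug cannot be told apart. Each line also belongs to its own siRNA experiment, and its values were scaled as a pair of their own. The line and the experiment therefore cannot be told apart either. With library totals the median of all genes moved from 0.02 to 0.28 and the split over all genes from 1494 higher and 2008 lower to 2399 higher and 1494 lower, and these 5 calls kept their direction and their side of 2-fold.

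**Figure D3:**
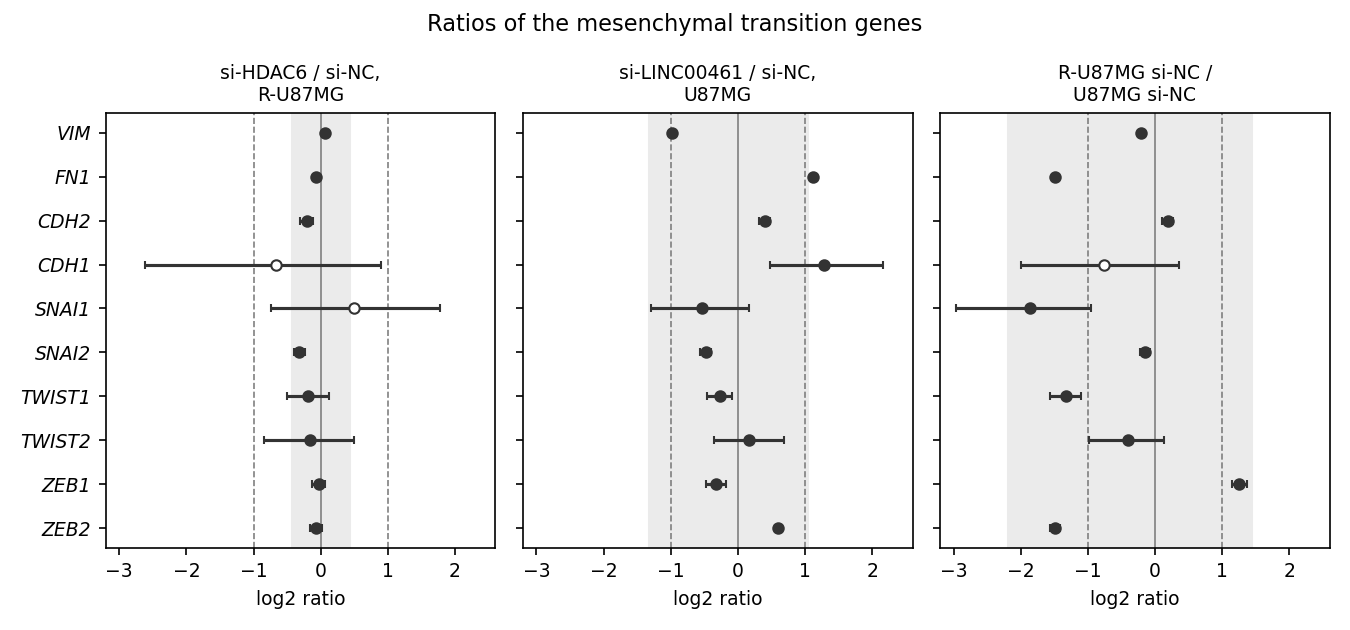
Log2 ratios of the 10 genes in the 3 comparisons, with exact 95% counting intervals, dashed lines at 2-fold, and a grey band from the 5th to the 95th percentile of all genes tested (open points lie under the filter on low counts). The tested genes lie between −0.32 and 0.07 after si-HDAC6, and FN1 (1.12) and CDH1 (1.28) lie beyond the band after si-*LINC00461*.

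The partners of these genes were described by lists. Of 22 epithelial genes, 8 were tested after si-HDAC6, 13 after si-*LINC00461* and 12 between the controls. None of those tested was called in either knockdown, beside 1.44% of all genes after si-HDAC6 and 13.6% after si-*LINC00461*. The list medians were 0.00 and 0.15 on the log2 scale. CLDN1, a tight-junction claudin, had the largest ratio after si-HDAC6, 0.62 (−0.38 to 1.65). In the si-*LINC00461* comparison the simple-epithelium keratin KRT18 had the largest ratio, 0.97 (0.42 to 1.55), from 44 and 76 counts. Between the controls 7 of 12 were called lower in R-U87MG and 0 higher, where 15.0% and 11.2% of all genes were, with a median of −1.35. CLDN7, another claudin, had 43 counts in U87MG and 5 in R-U87MG (−2.98, −4.79 to −1.77), the mucin MUC1 had 161 and 20 (−2.97, −3.75 to −2.33), and the junctional adhesion molecule F11R had 825 and 183 (−2.17, −2.41 to −1.94). EPCAM had 20 to 28 counts in every library. The epithelial list summed to 36.1 to 89.1 TPM, against 5380 to 6780 TPM for the 10 mesenchymal transition genes. VIM alone had 2550 to 5540 TPM.

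The catenins link cadherins to the actin cytoskeleton. CTNNA1, CTNNB1 and CTNND1, which encode α-, β- and p120-catenin, had ratios between −0.31 and 0.23 in the 3 comparisons. Of 7 genes in the catenin list, 5 were tested after si-HDAC6 and 7 after si-*LINC00461*. None of those was called, beside 1.44% of all genes after si-HDAC6 and 13.6% after si-*LINC00461*. ARVCF, a p120-catenin relative, had the largest ratio after si-HDAC6, −0.43 (−1.34 to 0.40), and JUP, or plakoglobin, the largest after si-*LINC00461*, 0.82 (0.20 to 1.47). Between the controls 2 of 7 were lower in R-U87MG and 0 higher, beside 15.0% and 11.2% of all genes. CTNNA2, the neural α-catenin, had 201 counts in U87MG si-NC and 0 in R-U87MG si-NC, at least 66.8-fold lower when 3 counts are taken as the floor of that library. JUP had 36 and 15 counts there (−1.23, −2.23 to −0.35).

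Of 20 other mesenchymal genes, 18 were tested in each comparison. After si-HDAC6 none was called, beside 1.44% of all genes. MGP, the matrix Gla protein, had the largest ratio there, −0.74 (−1.02 to −0.47). After si-*LINC00461* 3 of 18 were higher and 0 lower, beside 5.42% and 8.17% of all genes. The receptor PDGFRB rose from 159 to 393 CPM (1.32, 1.26 to 1.38), MGP from 28 to 59 counts (1.25, 0.59 to 1.97) and the proteoglycan LUM from 67 to 135 counts (1.19, 0.76 to 1.64). Between the controls 4 of 18 were higher in R-U87MG and 6 lower, beside 11.2% and 15.0% of all genes. CDH11, a mesenchymal cadherin, had 186 counts in U87MG and 9 in R-U87MG (−4.29, −5.52 to −3.41), PDGFRB had 3182 and 420 (−2.92, −3.07 to −2.77) and the microfibril gene FBN1 had 35541 and 8547 (−2.05, −2.09 to −2.02). MGP (28 and 347, 3.61), the calcium-binding protein S100A4 (38 and 91, 1.25) and LUM (67 and 156, 1.22) were higher in R-U87MG.

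Among 24 partners of the transition factors, none of 21 tested was called after si-HDAC6, beside 1.44% of all genes. HMGA2, a chromatin protein upstream of SNAI1 and TWIST1, had the largest ratio there, 0.36 (0.33 to 0.40). After si-*LINC00461* 2 of 22 were higher and 2 lower, shares near those of all genes (5.42% and 8.17%). The homeobox factor PRRX1, itself an inducer of mesenchymal transition, had 1139 and 4144 counts (2.05, 1.96 to 2.15), and SOX4 had 117 and 381 (1.89, 1.59 to 2.20). GSK3B, the kinase that marks Snail for degradation, had 2497 and 643 (−1.77, −1.90 to −1.64), and EZH2, the Polycomb methyltransferase, had 582 and 185 (−1.46, −1.71 to −1.23). Between the controls 3 of 21 were higher in R-U87MG and 3 lower, again near the shares of all genes (11.2% and 15.0%). LOXL2, a lysyl oxidase that interacts with Snail, had 67727 counts in U87MG and 3181 in R-U87MG (−4.41, −4.46 to −4.36), the E protein TCF4, a dimer partner of TWIST factors, had 1494 and 519 (−1.52), and the LIM-domain protein LIMD1 had 4741 and 1882 (−1.33). The forkhead factor FOXC1 (55 and 161, 1.54), EZH2 (582 and 1521, 1.39) and PRRX1 (1139 and 2800, 1.30) were higher.

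TGF-beta is the best known inducer of these factors, and all 20 genes of its list were tested. None was called after si-HDAC6, beside 1.44% of all genes, with TGFB2 at −0.31 (−0.49 to −0.12). After si-*LINC00461* the ligand TGFB3 was higher (148 and 526 counts, 2.01, 1.75 to 2.29) and the signal transducer SMAD3 lower (4701 and 1212, −1.77, −1.86 to −1.68), and the median was 0.02. These were 1 of 20 in each direction, beside 5.42% and 8.17% of all genes. Between the controls 2 of 20 were higher and 7 lower, beside 11.2% and 15.0% of all genes, with a median of −0.56. TGFBI, a matrix protein induced by TGF-beta, had 138967 and 32945 counts (−2.07), LTBP3 had 13021 and 3123 (−2.06) and SMAD3 had 4701 and 1138 (−2.04), whereas the feedback inhibitor PMEPA1 had 387 and 1692 (2.13) and LTBP2 had 1713 and 4555 (1.41).

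Of 12 regulators and markers of the mesenchymal GBM subtype, none was called after si-HDAC6, beside 1.44% of all genes. STAT3, a regulator of that subtype, had the largest ratio there, −0.66 (−0.78 to −0.54). After si-*LINC00461* 3 of 12 were higher and 2 lower, beside 5.42% and 8.17% of all genes. CHI3L1, the secreted glycoprotein used as a marker of mesenchymal GBM, rose from 2002 to 63189 counts (5.17, 5.10 to 5.23), RELB from 288 to 555 (1.13, 0.93 to 1.34) and STAT3 from 2721 to 5053 (1.08, 1.01 to 1.15). WWTR1, which encodes the Hippo effector TAZ, had 3939 and 1398 counts (−1.31) and RUNX1 had 5309 and 1906 (−1.29). Between the controls 4 of 12 were lower in R-U87MG and 0 higher, beside 15.0% and 11.2% of all genes, among them CEBPD (1038 and 68, −3.92), FOSL2 (12299 and 4153, −1.56) and CHI3L1 (2002 and 701, −1.51).

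Fibronectin is bound by integrins and syndecans, and FBLN1 is a matrix protein that binds it. Of these 8 genes 7 were tested after si-HDAC6 and none was called, beside 1.44% of all genes, with SDC2 at −0.21 (−0.37 to −0.06). After si-*LINC00461* 1 of 8 was higher and 2 lower, beside 5.42% and 8.17% of all genes. ITGAV, the αV integrin chain, had 6634 and 662 counts (−3.14, −3.26 to −3.02), and ITGB3, the β3 chain that pairs with it, had 7957 and 19633 (1.49, 1.45 to 1.53). FBLN1 had 108 and 29 (−1.69, −2.35 to −1.11). ITGA5 and ITGB1, the chains of the main fibronectin receptor, had ratios of 0.60 (0.58 to 0.62) and 0.20 (0.18 to 0.21). Between the controls 4 of 8 were lower in R-U87MG and 0 higher, beside 15.0% and 11.2% of all genes, with a median of −1.16. FBLN1 (108 and 13 counts, −3.0), SDC2 (2391 and 847, −1.49), ITGA4 (277 and 106, −1.38) and ITGA5 (−1.38) were lower there, in the libraries where FN1 was also lower.

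The list of other intermediate filament genes held 9, among them PLEC, whose protein links filaments and does not form them. Of the 9, 4 were tested in each comparison. None was called in either knockdown, beside 1.44% of all genes after si-HDAC6 and 13.6% after si-*LINC00461*. NEFM, a neurofilament, had the largest ratios of 0.85 (−0.25 to 2.01) after si-HDAC6 and −0.56 (−1.0 to −0.13) after si-*LINC00461*. Between the controls, where 1 of 4 was called in each direction beside 15.0% of all genes lower and 11.2% higher, NEFM was lower in R-U87MG (121 and 13 counts, −3.17) and SYNM higher (25 and 51 counts, 1.02, 0.31 to 1.78). After si-*LINC00461* no tested gene of the list was as low as VIM, and the list median was −0.14.

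Of 10 proliferation genes, all 10 were below 0 after si-HDAC6, with a median of −0.26. None was called there, beside 1.44% of all genes, and TOP2A had the largest ratio of −0.42 (−0.48 to −0.36). After si-*LINC00461* 9 of 10 were called lower, beside 8.17% of all genes, with a median of −2.19, led by CCNA2 (−2.93), MKI67 (−2.86) and PLK1 (−2.82). Between the controls 3 of 10 were called higher in R-U87MG, beside 11.2% of all genes (PCNA 1.75, CCNB1 1.22 and AURKA 1.12), with a median of 0.89.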

How the data were processed

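RNA-seq of 4 libraries of U87MG and R-U87MG cells was analyzed. Per the labels and the study's methods, libraries were strand-specific, and the submitters' processing notes name bcl2fastq, Trimmomatic 0.36, HISAT2 and GRCh38.p13. The counting program, and whether it used strand, are not given in the sources used here. The authors deposited 1 estimated count for each Ensembl ID (expected counts), scaled in each library by a factor of 0.869 to 1.15. Each value was divided by that factor and rounded, and 94.09% to 94.48% of values above 0 lay within 0.02 of a whole number (above 10000 this cannot be told). Symbols and positions came from GENCODE 29, which holds 57888 of the 58226 IDs.

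Each pair of libraries was normalized with TMM (edgeR 4.0.16, R 4.3.3), and log2 ratios of counts plus 0.5 were taken, which shrinks the ratios of lowly expressed genes. Intervals are exact binomial (Clopper-Pearson, 95%). A 2-fold threshold, without p-values, was applied to genes whose CPM averaged 1 or more. TPM used merged exon lengths. The code was tested on simulated data. Alternatives were library totals, DESeq2 1.42.0 size factors, upper-quartile scaling, the authors' scaling, pseudocounts of 0.1 and 5, thinning to 12596072 counts, other filters and thresholds, and, chosen after seeing the data, genes with whole fragment numbers only. Computation was done in Python 3.11.15 with scipy 1.17.1, pandas 2.3.3 and numpy 2.4.6, and plotting in matplotlib 3.10.9.

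The genes, lists and tests were chosen with earlier results of these data known. All 10 genes are named in every library. From each other list up to 3 genes with the largest rise and 3 with the largest fall past 2-fold are named per comparison, or the largest change where none passed. EPCAM, ITGA5, ITGB1, the catenins and the glial and endothelial genes beside OLIG2, EGFR and PECAM1 were added with their values seen.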

Additional observations from a re-analysis of the deposited data

How the results depend on the processing

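The ratios of VIM and SNAI2 between the control libraries changed sign with library totals, and no other ratio of the 10 genes changed sign under any alternative run. Among the alternatives, 17 ratios of the 10 genes moved beyond their counting interval and 273 did not, and 0 called values reversed. DESeq2 size factors put 1 of the 10 genes (VIM, −1.01) past 2-fold lower after si-*LINC00461*. At a 1.5-fold threshold 1 was lower (VIM) and 3 higher (FN1, CDH1 and ZEB2), and 1 was higher (FN1) when the whole interval had to pass 2-fold.

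Counts over all genes moved more. After si-HDAC6 they were 2465 higher and 3050 lower without a filter, 352 and 330 at 1.5-fold, and 16 and 16 with the interval wholly beyond 2-fold. The number lower was 43 with a pseudocount of 5 and 58 with at least 10 counts in each library. After si-*LINC00461* they were 3799 and 4243 without a filter, 1871 and 2222 at 1.5-fold, and 380 and 631 with the interval. Between the controls they were 4772 and 5793 without a filter and 3077 and 3346 at 1.5-fold, and the number higher was 2399 with library totals and 846 with the interval. With more genes tested or another threshold such counts move by construction. For the other settings the cause was not tested. No paired analysis was possible because each condition has 1 library and the labels give no replicate numbers.

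Depth limits CDH1 and SNAI1, with 5 to 45 counts per library. FN1, VIM, ZEB1 and ZEB2 have at least 640 counts in each, and their limit is the absence of replicates.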

Other observations

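For the genes whose level spanned at least 1 on the log2 CPM scale over the 4 libraries, the genes of most similar pattern were found by the Euclidean distance of centred log2 CPM over the 4 libraries, among 13348 genes with a mean of at least 1 CPM. PCDHB11, a protocadherin of the β cluster, came nearest to FN1 with a distance of 0.024, followed by CNTNAP1 (0.098) and GALC (0.113). PCDHB11 was low, at −0.53 to 2.14 on the log2 CPM scale, where counting error is larger than this distance. GSR, or glutathione reductase, came nearest to ZEB1 (0.057), SLC44A2 to ZEB2 (0.068), PLEKHA4 to TWIST1 (0.07), APOL6 to SNAI1 (0.125) and LRRC32 to CDH1 (0.115). With 4 libraries in a pattern and 13348 genes, near matches are easily found. VIM, CDH2, SNAI2 and TWIST2 spanned under 1 and were not matched.

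Antisense genes that overlap the genes described had few counts. VIM-AS1 had 71 to 96 and ZEB1-AS1 39 to 88, and the pseudogene SPTLC1P1 inside ZEB1 had 10 to 19. Of the 50-base stretches of VIM transcripts, 20.7% also occur on a strand of transcripts of other genes, among them VIM-AS1. This share was 4.41% for ZEB2, 4.14% for CDH1, 2.84% for ZEB1, 2.47% for TWIST1, 1.84% for CDH2 and 0.315% for FN1, and 0 for SNAI1, SNAI2 and TWIST2. How shared fragments were assigned is not given in the sources used here.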
